A study of Mus musculus with 7 samples.

Results

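The genes described here, 8 in number, make, carry and break down adenosine and related purines. They were followed across 7 Affymetrix arrays of Paneth cells sorted from mice. These cells sit at the bottom of the crypts of the small intestine and secrete antimicrobial proteins. The genes were Ada, Adk, Enpp1, Enpp3, Nt5e, Entpd1, Slc29a1 and Xdh, a biochemical family chosen by the diet differences of Ada and Enpp3, which were among the largest on the arrays. Of the 8 genes, 7 were measured among 19938 named genes, each by 1 transcript cluster (a probe set that reads a whole gene), and Enpp1 was not analysed here. Of the 7, 6 lay above a level filter that left 13409 genes, and Entpd1 did not. The mice were 4 months old and were either fed ad libitum (3 arrays) or given 60% of the ad libitum calories (4 arrays) for 4 to 7 weeks. Strain, genotype and the number of animals in a sample are unstated in the sources used here. The cells were isolated by flow cytometry, and the labels call the samples biological replicates without naming the animals, so the spread between arrays may hold technical variation. Values are log2 expression per array, differences are calorie restricted minus ad libitum, and errors are the SD over arrays or, for a difference, the standard error (SE) of a moderated linear model (limma). Because the diet differences chose these genes, those differences are given as a description, with no p-value of their own.

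ATP that leaves a cell is taken apart on the outer membrane. Ectonucleotidases of the ENTPD and ENPP families remove phosphates to give AMP, and the ectoenzyme CD73 (Nt5e) turns AMP into adenosine, a ligand of G protein-coupled receptors. Nucleoside carriers such as ENT1 (Slc29a1) take adenosine up. Inside the cell adenosine kinase (Adk) returns it to AMP, while adenosine deaminase (Ada) turns it into inosine, whose purine ring xanthine dehydrogenase (Xdh) oxidizes further to urate. In the mouse small intestine Ada and Nt5e are known as genes of enterocytes, the absorptive cells of the villus, above all toward the villus tip.

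Ada and Enpp3, the pair with the largest differences of the family, start from promoters of different base composition. Both are shown for these differences, by which the family was chosen, and shared regulation was not tested. The windows hold 250 bases before and 50 bases after the RefSeq start (build GRCm38.p6, minus strand, chr2:163750190-163750489 for Ada and chr10:24836146-24836445 for Enpp3). Both strands were searched for 4 short motifs, none of which overlaps another in these windows. The GC box was searched as GGGCGG. The TATA box was searched as TATAAA. The CCAAT box was searched by the letters of its name. The GATA factor site was searched as AGATAA. Capitals mark the matches.
Ada: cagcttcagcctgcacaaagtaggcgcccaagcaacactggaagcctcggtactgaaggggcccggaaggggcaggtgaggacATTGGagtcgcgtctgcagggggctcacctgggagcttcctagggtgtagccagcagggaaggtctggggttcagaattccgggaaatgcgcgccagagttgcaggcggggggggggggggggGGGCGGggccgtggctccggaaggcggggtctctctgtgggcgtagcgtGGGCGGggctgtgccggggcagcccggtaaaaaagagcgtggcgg
Enpp3: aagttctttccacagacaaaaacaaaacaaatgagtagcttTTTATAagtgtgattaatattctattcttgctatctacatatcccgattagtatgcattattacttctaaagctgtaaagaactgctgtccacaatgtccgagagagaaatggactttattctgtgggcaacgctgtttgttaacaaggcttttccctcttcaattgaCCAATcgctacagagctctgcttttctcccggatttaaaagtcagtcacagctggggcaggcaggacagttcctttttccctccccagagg
The Ada window is 68% G and C and the Enpp3 window 40.7%, against a median of 52.7% over 32851 promoter windows of the same length. Ada holds 2 GC boxes, 1 of them 44 bases before the start and the other 5 bases after it, and Enpp3 holds 0, whereas 35.7% of all windows hold at least 1. The single TATA box match of Enpp3 lies 209 bases before the start, on the other strand (13.6% of windows hold a match). Each window has 1 CCAAT box (37.4% of windows), and neither has the GATA factor site (11.2%). The CCAAT box lies 167 bases before the start in Ada, on the other strand, and 41 bases before it in Enpp3, on the strand printed. These matches describe the letters of the windows and not sites of binding. Enpp1 is the protein-coding neighbour of Enpp3 in RefSeq, with 0 protein-coding genes listed between them. Windows with more G and C than that of Ada were also found for Nt5e (71%), for 1 of 2 Adk starts (75%) and for 1 of 8 Slc29a1 starts (72%).

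The sorted cells carried the markers of Paneth cells. The mean of 12 Paneth markers lay between 13.20 and 13.52 under calorie restriction and between 13.41 and 13.52 under ad libitum feeding, with 0 of 12 past the test, and the lysozyme gene Lyz1 was at 14.31 ± 0.04 (SD, n = 4) against 14.31 ± 0.02 (n = 3). Clps, a further Paneth cell gene on the list, was at 14.23 ± 0.08 against 14.28 ± 0.07. Array medians ran from 7.24 to 7.42 under calorie restriction and from 7.29 to 7.44 under ad libitum feeding. Enterocyte markers differed between the diets. Of 30 enterocyte markers tested, none of them members of this family, 11 were called higher under calorie restriction (limma, adjusted p below 0.05), and their mean was 11.48 to 11.73 in the 4 calorie-restricted arrays against 10.26 to 10.83 in the 3 ad libitum arrays. All 30 lay above the filter, and the brightest, Lypd8 and Anpep, were at 13.80 ± 0.03 and 13.48 ± 0.11 under calorie restriction against 13.82 ± 0.05 and 13.15 ± 0.17. In such bulk samples more cells of a type and more RNA per cell cannot be told apart. The part of enterocyte RNA in the values that follow was not tested.

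Among the family members that act outside the cell, Enpp3 had the largest difference. Enpp3 encodes an ectoenzyme that hydrolyses extracellular nucleotides and nucleotide sugars. In order of replicate number, its values were 11.15, 11.55, 11.81 and 11.68 under calorie restriction, compared with 10.24, 9.19 and 9.63 on the ad libitum arrays. All calorie-restricted arrays lay above all ad libitum arrays, and the gap between the groups was 0.91, with replicate 1 the highest of the ad libitum arrays and the lowest of the calorie-restricted ones. The means were 11.55 ± 0.29 (SD, n = 4) and 9.69 ± 0.53 (n = 3), a difference of 1.86 ± 0.25 (SE) or 3.64-fold, which placed Enpp3 at rank 14 of 13409 genes by difference. Leaving out each array in turn gave differences from 1.62 to 2.14.

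Nt5e, which encodes CD73, had the widest spread within diets of the 6 genes. In the same order it was at 8.97, 10.19, 10.51 and 8.51 under calorie restriction, compared with 9.26, 7.62 and 7.61 on the ad libitum arrays. Replicates 2 and 3 were high under calorie restriction, replicate 1 was high under ad libitum feeding, and that array lay above calorie restricted replicates 1 and 4, so the groups overlapped. The means were 9.54 ± 0.96 (SD, n = 4) and 8.16 ± 0.95 (n = 3), and the difference was 1.38 ± 0.57 (SE), or 2.61-fold. It was 1.06 without calorie restricted replicate 3 and 1.93 without ad libitum replicate 1, and limma's array weights gave 2.15. The SD within diets, pooled over both groups, was 0.95, larger than that of 99.9% of the genes tested, whose median was 0.15. This spread is a measure that did not enter the choice of the genes.

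Entpd1, which encodes CD39, the ectonucleotidase that takes ATP and ADP to AMP, was the only measured member below the level filter. It was at 6.04, 6.21, 6.35 and 6.12 under calorie restriction, and the 3 ad libitum arrays lay between 5.93 and 6.08. All 7 values were below the filter level of 6.79, and no detection call was used, so signal above background was not shown for this gene. The groups overlapped, and the difference of the means was 0.18. Slc29a1, whose product ENT1 carries adenosine in both directions across the membrane, was at 10.31, 10.57, 10.45 and 10.23 under calorie restriction and at 10.44, 10.35 and 10.18 under ad libitum feeding. These values overlapped, with a difference of 0.07 ± 0.11 (SE).

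Inside the cell, the enzymes that compete for adenosine had unlike differences. By replicate number, Ada was at 10.40, 10.96, 11.72 and 11.28 under calorie restriction, compared with 9.34, 8.23 and 9.29 on the ad libitum arrays. The groups lay 1.07 apart at their nearest points, and ad libitum replicate 2 was the lowest array. The means were 11.09 ± 0.55 (SD, n = 4) and 8.95 ± 0.62 (n = 3), a difference of 2.14 ± 0.35 (SE) or 4.41-fold, rank 5 of 13409 genes. The difference was 1.78 without ad libitum replicate 2, the smallest value when each array was left out in turn, and 2.37 without calorie restricted replicate 1, the largest.

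Adk, the kinase that salvages adenosine to AMP, had the smallest difference of the 6. It was at 10.73, 10.66, 10.65 and 10.47 under calorie restriction and at 10.85, 10.59 and 10.63 under ad libitum feeding. The groups overlapped, and the difference was -0.06 ± 0.10 (SE), and it ran from -0.11 to 0.05 over 16 alternatives. It was positive after median centring of the arrays (0.03), with array weights (0.05) and without ad libitum replicate 1 (0.02). The Ada value relative to the Adk value, taken within each array and so free of any array scaling, was 4.59-fold higher under calorie restriction (2.20 log2 units), with SDs of 0.61 (n = 4) and 0.54 (n = 3). Nearly all of it is the Ada difference, for which the family was chosen, so it is a description only.

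Xdh, which oxidizes hypoxanthine and xanthine to urate, was at 10.70, 10.50, 10.70 and 10.77 under calorie restriction, compared with 10.25, 9.86 and 10.22 on the ad libitum arrays. The groups did not overlap but came within 0.25 of each other. The means were 10.67 ± 0.12 (SD, n = 4) and 10.11 ± 0.22 (n = 3), and the difference was 0.56 ± 0.12 (SE), or 1.47-fold. Of the 6 genes above the filter, 3 (Ada, Enpp3 and Xdh) had groups that did not overlap with calorie restriction above, where 7.14% of all genes tested did, and 0 lay below, where 3.03% did (10.2% in either direction). By the fit over all genes 2 of the 6 (Ada and Enpp3) were past an adjusted p of 0.05 in the higher direction, where 0.656% of all genes were, and 0 in the lower direction, where 0.00746% were. The rule used this contrast, and nothing is read from these counts.

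**Figure D1:**
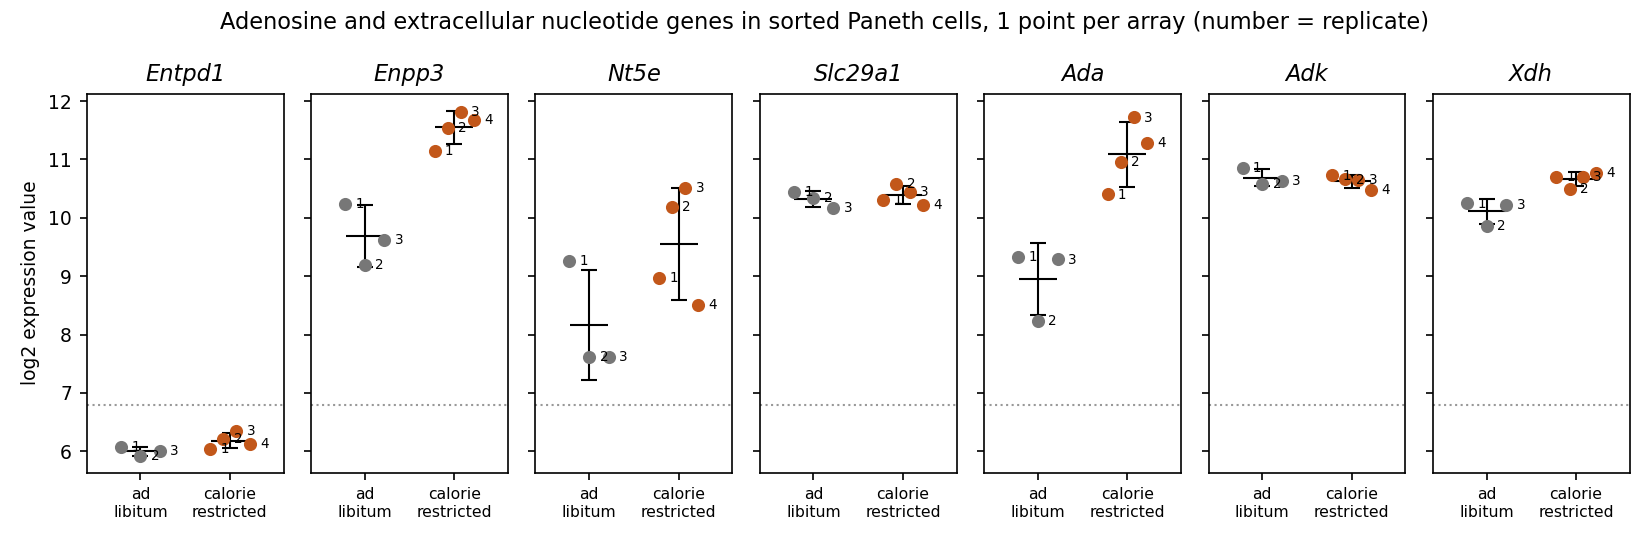
Log2 expression value (y axis) of the 7 measured genes in each array, by diet (x axis), with 1 point per array numbered by replicate, bars for the mean ± SD (n = 3 ad libitum, n = 4 calorie restricted) and a dotted line at the filter level of 6.79. The diets separate for Enpp3, Ada and Xdh and overlap for Nt5e, Slc29a1, Adk and Entpd1, and heights are not comparable between genes.

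The deviation of each array from the mean of its own diet is another measure than the diet difference that chose the genes. The measures need not be independent. The pooled SDs within diets of Ada and Enpp3 were larger than those of 98.3% and 94.0% of the genes tested. Ada and Enpp3 deviated together: both were lowest in calorie restricted replicate 1 (-0.69 and -0.40) and highest in replicate 3 (0.63 and 0.27), and under ad libitum feeding both were lowest in replicate 2 (-0.72 and -0.49). The Pearson correlation of their deviations was 0.87 over 7 arrays. For Ada with Xdh it was 0.64 and for Ada with Adk 0.09. The mean of the 5 lymphocyte markers above the filter moved with both genes as closely, at 0.92 with Ada and 0.88 with Enpp3, and the crypt stem markers moved against Enpp3 (-0.88) and Ada (-0.62). The lymphocyte mean deviated by -0.16 in calorie restricted replicate 1 and -0.12 in ad libitum replicate 2, where Ada was lowest in each diet, and by 0.03 to 0.08 in the other 5 arrays. With the enterocyte mean the correlation was 0.50 for both Ada and Enpp3. The part of these markers in the Ada and Enpp3 values was not tested. These are descriptions over 7 points that share their arrays and their diet means. The deviations of a gene have 5 degrees of freedom, and a correlation between 2 sets of them has fewer.

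Nt5e followed another pattern than Ada, and other members shared it in part. The deviations of Nt5e correlated at 0.84 with those of Slc29a1, 0.71 with Adk and 0.66 with Enpp3. With Ada the correlation was 0.49 and with Xdh 0.02. Its deviations were 0.65, 0.97 and 1.09 in calorie restricted replicates 2 and 3 and ad libitum replicate 1, and between -1.04 and -0.54 in the other 4 arrays. The same 3 arrays were those with positive values in the leading component of variation within diets, which held 65.7% of that variation over all genes tested. With that component the deviations correlated at 0.96 for Nt5e, 0.86 for Slc29a1, 0.85 for Adk and 0.55 for Enpp3. For Ada the value was 0.27 and for Xdh -0.004. The same 3 arrays also had the highest mean of 8 enteroendocrine markers (hormone cell genes such as Chga and Gip). It was 11.29, 11.30 and 11.06 there against 10.21 to 10.59 in the other 4 arrays. The deviations of Nt5e correlated with those of the enteroendocrine mean at 0.99 over 7 arrays. The endothelial and stromal mean (5 markers above the filter) also had the sign of Nt5e in all 7 arrays, by at most 0.18 in size, with a correlation of 0.90. The Paneth mean correlated with Nt5e at 0.79, and the macrophage and crypt stem means ran against it (-0.90 and -0.73). Slc29a1 deviated the same way by smaller amounts in calorie restricted replicates 2 and 3 and ad libitum replicate 1 (0.18, 0.06 and 0.12), with 0.03 in ad libitum replicate 2. The part of these markers, or of the leading component, in the Nt5e values was not tested.

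**Figure D2:**
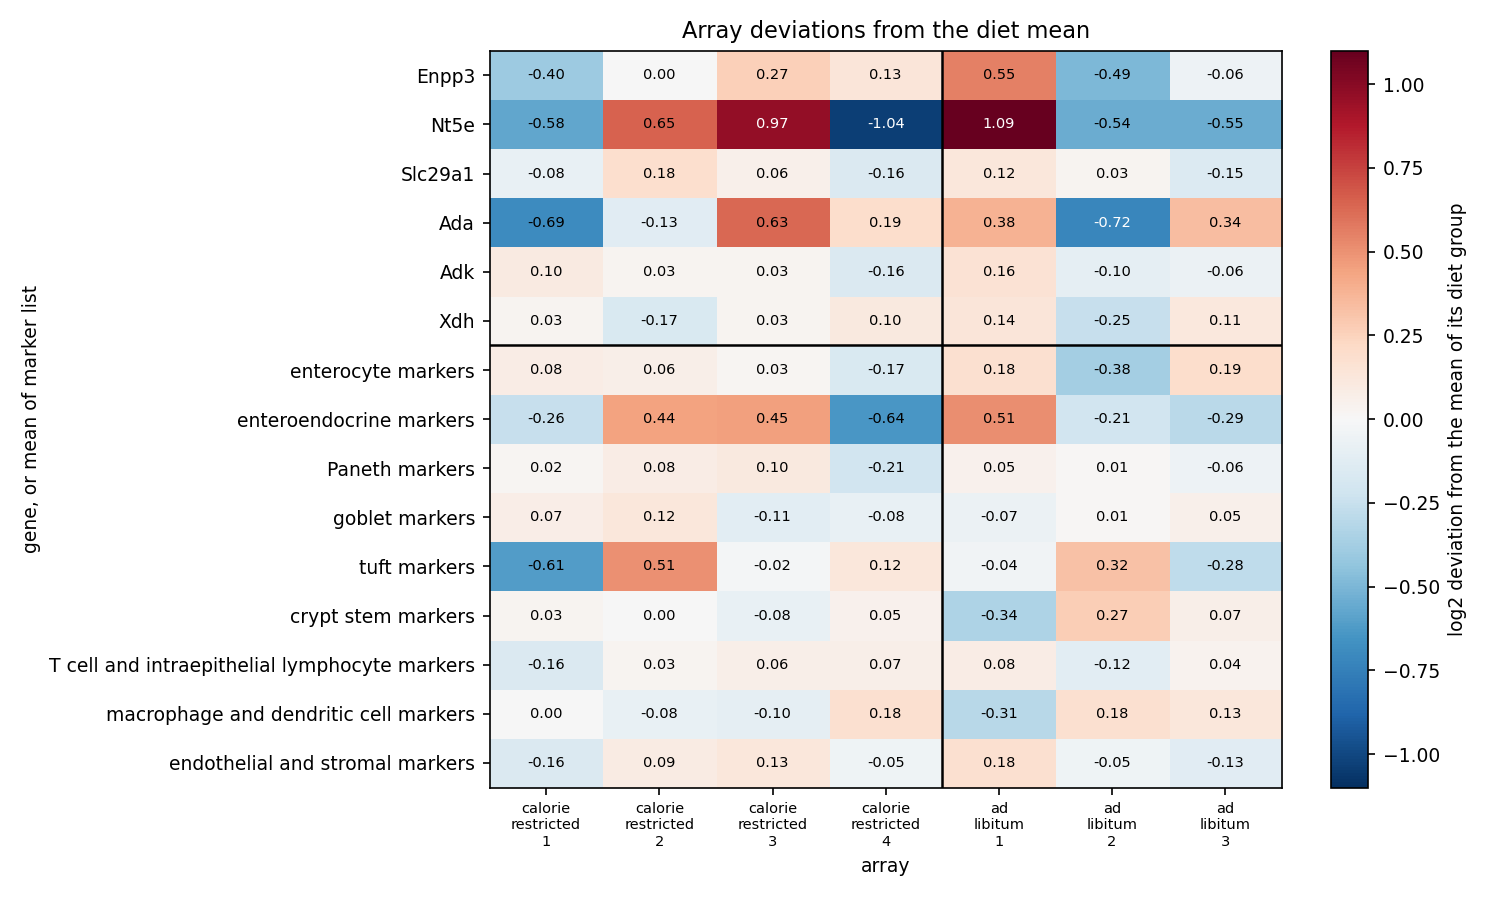
Log2 deviation of each array (columns) from the mean of its diet group, for the 6 genes above the filter and for the mean of those markers of each cell type list that passed it (rows), with the value printed in each cell. Nt5e reaches 0.97 in calorie restricted replicate 3, 1.09 in ad libitum replicate 1 and -1.04 in calorie restricted replicate 4, and the enteroendocrine and the endothelial and stromal markers have the same signs in all 7 arrays.

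The median diet difference of the 30 enterocyte markers was 1.03, and their differences ran from -0.02 to 2.73. Ada and Enpp3 were picked for large differences, so their place among these markers is set by that choice. Within the calorie-restricted group the order of the arrays was not that of the mean of the enterocyte markers. Single markers of that list had unlike orders. Cyp3a11 was lowest in calorie restricted replicate 1 (10.48) and highest in replicate 3 (11.77), while Cubn was highest in replicate 1 (10.60) and lowest in replicate 4 (9.10). The part of enterocyte RNA in these orders was not tested. Calorie restricted replicate 1 had the highest enterocyte mean (11.73) and the lowest Ada and Enpp3, and replicate 4 had the lowest enterocyte mean (11.48) with Ada and Enpp3 the second highest of the group. Within the ad libitum group replicate 2 was lowest for the enterocyte mean (10.26, against 10.82 and 10.83) and lowest for Ada, Enpp3 and Xdh.

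The means of the Paneth, goblet, enteroendocrine, tuft, crypt stem, lymphocyte, macrophage and endothelial marker lists overlapped between the diets, and 0 markers of these lists passed the test (limma, adjusted p below 0.05). At an unadjusted p below 0.05 the goblet list had 2, the enteroendocrine list 1 and the lymphocyte list 1, and the other 5 lists had 0. The goblet mean was 13.04 to 13.27 under calorie restriction and 13.12 to 13.23 under ad libitum feeding. Of single markers in these lists, Muc2 (13.90 ± 0.06 against 14.10 ± 0.02) and Cd8a had groups that did not overlap, with calorie restriction below. Zg16 had such groups with calorie restriction above (10.2% of all genes tested did not overlap in either direction). The 9 lymphocyte markers, of which 5 passed the filter, are shown because T lymphocytes also express Ada and Nt5e. The mean of those 5 was 7.17 to 7.40 under calorie restriction and 7.17 to 7.36 under ad libitum feeding, near the filter level, with Ccl5 (8.29 ± 0.14 against 8.05 ± 0.30) and Cd3e (7.55 ± 0.14 against 7.62 ± 0.05) the brightest. The brightest markers of the other lists were Muc2 and Tff3 (goblet), Dclk1 and Avil (tuft), Olfm4 and Lgr5 (crypt stem), Lyz2 and Itgam (macrophage), and Vim and Col1a1 (endothelial and stromal). Lyz2 is a near-identical copy of the Paneth gene Lyz1, so its value of 12.82 ± 0.12 against 12.79 ± 0.04 cannot be assigned to macrophages.

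**Figure D3:**
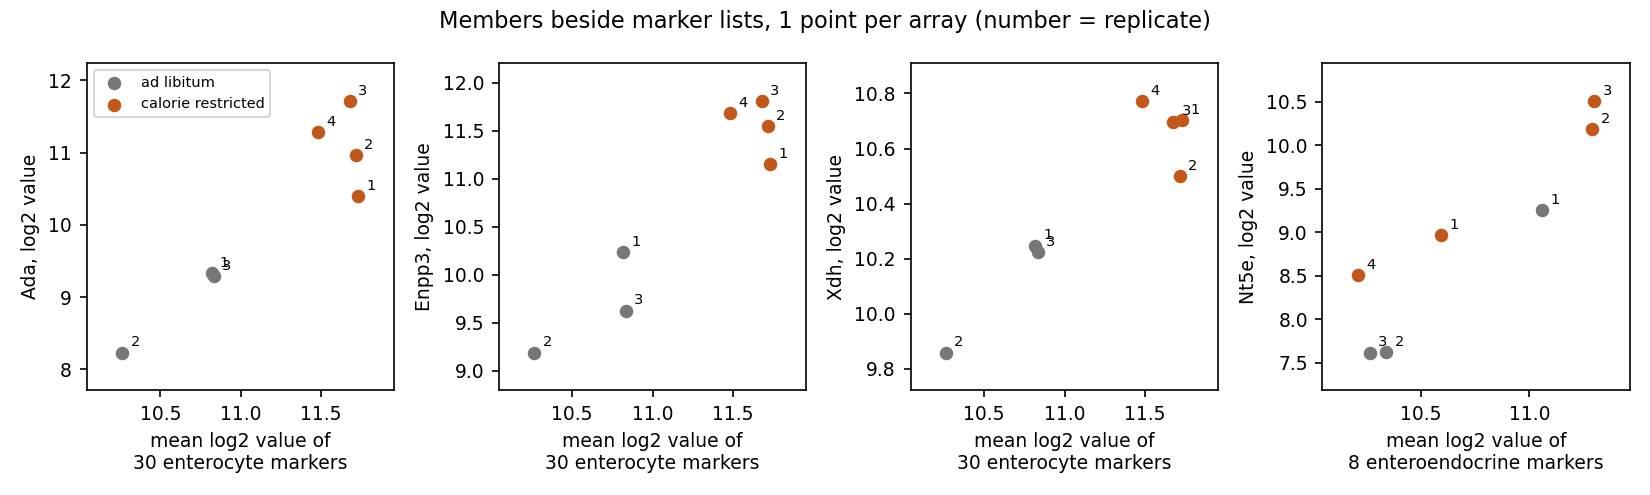
Log2 value of Ada, Enpp3 and Xdh (y axes) against the mean log2 value of 30 enterocyte markers, and of Nt5e against that of 8 enteroendocrine markers (x axes), 1 point per array numbered by replicate and coloured by diet. The diets separate on both axes of the first 3 panels, while calorie restricted replicate 1 combines the highest enterocyte mean (11.73) with the lowest Ada of its group (10.40), and in the last panel both diets span a like range of the enteroendocrine mean.

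The genes whose values ran most like those of Ada over the 7 arrays were Cyp3a11 (r = 0.981), a cytochrome P450 that metabolizes drugs, the triglyceride enzyme gene Dgat2 (0.978), Fhit (0.978), Ap1s3 (0.978) and Enpp3 (0.978). For Enpp3 they were Abcb1a (0.997), which encodes a drug efflux pump, the acyl-CoA thioesterase gene Acot12 (0.996), Nat8f5 (0.993), Cyb5r3 (0.991) and Dgat2 (0.990). Among 13408 other genes, 38 had a correlation above 0.95 with Ada and 75 with Enpp3. A difference between diets alone lifts such a correlation. Cyp3a11 is also on the enterocyte marker list, where its diet difference of 2.73 was the largest. Over the deviations from the diet means the closest genes to Ada were Zfp366 (0.988), Chrna4 (0.984), Bmp6 (0.983), Pnck (0.973) and Gm10832 (0.973), whose diet differences lay between -0.07 and 0.03. The closest to Enpp3 were Acot12 (0.990), Ltbp4 (0.986), Scrt2 (0.986), L3mbtl1 (0.985) and Atp2b2 (0.985). By this measure 22 genes were above 0.95 with Ada and 46 with Enpp3. The genes named are the highest of 13408 correlations over 7 arrays, where high values can arise without any link, and none was tested. Acot12 was the only gene among the closest 5 by both measures for the same target, and its own difference was 1.81 ± 0.19 (SE).

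Outside the family, 118 genes of nucleotide and nucleoside metabolism were listed by role, with earlier results of these data known, and 87 of them were tested. By limma over all genes, 4 rose under calorie restriction and 0 fell (adjusted p below 0.05), or 4.6% of the 87, against 0.664% of all genes tested. At an unadjusted p below 0.05, 12 were higher and 0 lower. The median difference of the 87 was 0.10 and that of all genes 0.01 (0.04 for genes above a 60th percentile level filter), and 64 of the 87 were positive. The 4 genes were Enpp7, Alpi, Gda and P2ry4, each of them called near the threshold. Leaving out calorie restricted replicate 1, 2 or 3 left 0 of 87 called (13, 12 and 14 higher at an unadjusted p below 0.05), and the count was 1 without calorie restricted replicate 4. It was 5, 1 and 2 when ad libitum replicates 1, 2 and 3 were left out, and 1 after quantile normalization.

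Among 17 tested ectonucleotidases and ectophosphatases 2 rose and 0 fell. Enpp7, a relative of Enpp3 whose product is an alkaline sphingomyelinase of the gut and not a nucleotidase, was 3.15-fold higher (10.75 ± 0.42, n = 4, against 9.09 ± 0.37, n = 3; limma, adjusted p = 0.0369, and 0.000526 to 0.150 over the alternatives). By limma it did not pass when calorie restricted replicate 1, 2 or 3 was left out (adjusted p = 0.122, 0.122 and 0.117), or ad libitum replicate 2 or 3 (0.150 and 0.0746). Alpi, the intestinal alkaline phosphatase, which removes phosphate from nucleotides and from bacterial lipopolysaccharide at the brush border, was 2.90-fold higher (12.07 ± 0.15 against 10.53 ± 0.60; adjusted p = 0.0415, and 0.00382 to 0.139 over the alternatives). Its call was lost in turn when each of the 4 calorie-restricted arrays was left out (limma, adjusted p = 0.139, 0.122, 0.136 and 0.0827), without ad libitum replicate 1 (0.0537) and after quantile normalization (0.0587). The related phosphatase gene Akp3 had a larger difference, 2.13 ± 0.40, with more spread, and did not pass (adjusted p = 0.0677). Probes of these alkaline phosphatase copies can share sequence, so their values are not fully separate. Dpp4, a peptidase of the brush border, was at 0.45 ± 0.13 without passing.

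None of the relatives of Entpd1 at the cell surface that were tested passed. Entpd2, Entpd3 and Entpd8, ENTPD enzymes of the cell surface, had differences of -0.03 ± 0.11, -0.16 ± 0.17 and -0.24 ± 0.18, with groups that overlapped, and Enpp4 and Enpp5 had differences of 0.06 ± 0.19 and -0.19 ± 0.21.

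Among 7 nucleoside carriers 0 passed the test (2 at an unadjusted p below 0.05). Those 2 were the sodium-driven concentrative carriers Slc28a1, which prefers pyrimidine nucleosides, and Slc28a2, which prefers purine nucleosides and takes up adenosine and inosine. Slc28a1 was at 9.44 ± 0.27 against 8.50 ± 0.40, with groups that did not overlap (limma, adjusted p = 0.131), and Slc28a2 at 8.73 ± 0.42 against 7.78 ± 0.41, with groups that overlapped (adjusted p = 0.231). The remaining equilibrative carriers lay nearer to Slc29a1: Slc29a2, Slc29a3 and Slc29a4 had differences of 0.04 ± 0.15, 0.08 ± 0.13 and 0.21 ± 0.11.

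Of the 8 nucleotide receptors tested 1 rose and 0 fell. P2ry4, a receptor for UTP and ATP on the intestinal epithelium, was 1.61-fold higher, at 7.78 ± 0.12 against 7.10 ± 0.20, the latter near the filter level (limma, adjusted p = 0.0457, and 0.00207 to 0.228 over the alternatives). The call was kept in 1 of the 7 fits without 1 array, that without ad libitum replicate 1 (adjusted p = 0.0287), and lost when any of the 4 calorie-restricted arrays (0.143, 0.141, 0.137 and 0.0778) or ad libitum replicate 2 or 3 (0.190 and 0.110) was left out. It was also lost after median centring (limma, adjusted p = 0.0685) and quantile normalization (0.0870), and the 60th percentile filter left the gene out. Its relative P2ry2 was at 0.77 ± 0.14 (adjusted p = 0.0671), with groups that did not overlap, and the ATP-gated channel gene P2rx4 at -0.22 ± 0.19. Among 5 nucleotide release channels and carriers 0 passed (1 at an unadjusted p below 0.05), and Gjb2, a connexin, had the smallest p (0.40 ± 0.13), followed by the vesicular nucleotide carrier Slc17a9 (-0.12 ± 0.18) and the pannexin Panx1 (-0.05 ± 0.12).

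**Figure D4:**
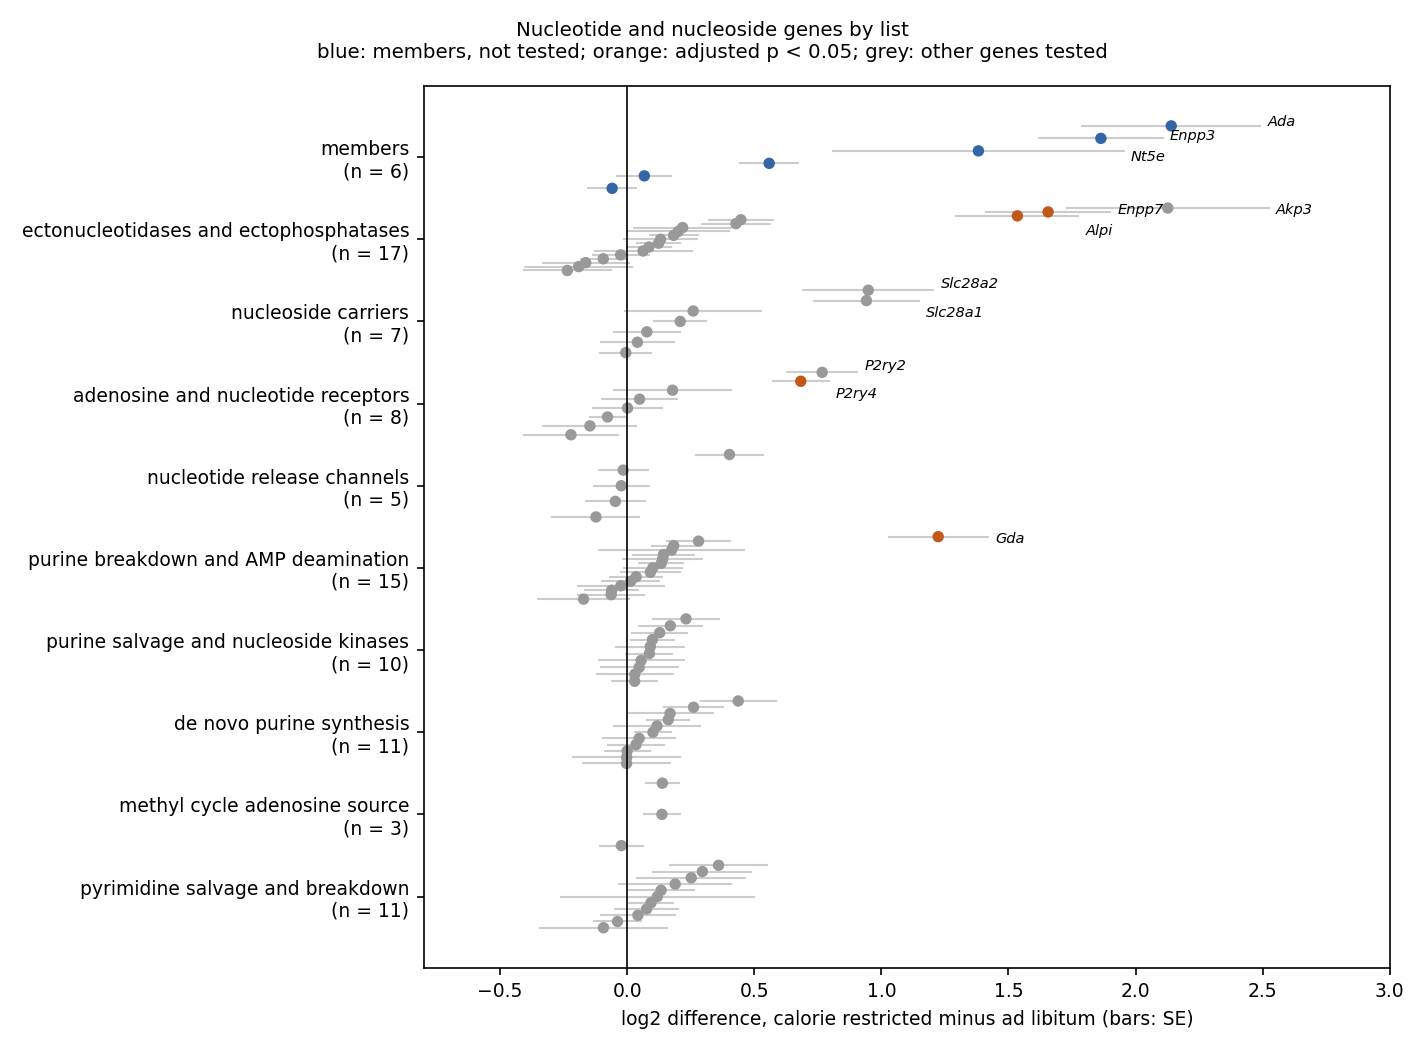
Log2 difference, calorie restricted minus ad libitum (x axis), with SE bars, for the 6 family members above the filter and for 87 other nucleotide and nucleoside genes by list (y axis). Ada, Enpp3 and Nt5e and, among the tested genes, Akp3, Enpp7, Alpi and Gda lie above 1, while the 10 salvage genes lie between 0.03 and 0.23.

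In purine breakdown, 1 of 15 genes rose and 0 fell. Gda, the guanine deaminase that supplies xanthine to Xdh, was 2.33-fold higher, at 9.90 ± 0.12 (n = 4) against 8.67 ± 0.47 (n = 3; limma, adjusted p = 0.0438, and 0.00454 to 0.177 over the alternatives). The call was lost when any of the 4 calorie-restricted arrays was left out (limma, adjusted p = 0.155, 0.122, 0.129 and 0.0853), without ad libitum replicate 1 or 2 (0.0637 and 0.0534) and after quantile normalization (0.0676). Mocos, which activates the molybdenum cofactor that Xdh needs, was at 0.28 ± 0.13 and the mitochondrial nucleotidase gene Nt5m at 0.18 ± 0.09, without passing. Pnp, the phosphorylase that stands between Ada and Xdh in the breakdown of inosine, was at -0.03 ± 0.17, and the AMP deaminase genes Ampd2 and Ampd3 at 0.03 ± 0.10 and -0.17 ± 0.18.

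Of 10 salvage and nucleoside kinase genes 0 passed (limma, adjusted p below 0.05, and 0 at an unadjusted p below 0.05), and their differences lay between 0.03 and 0.23. The salvage enzymes Aprt (0.23 ± 0.14) and Hprt (0.03 ± 0.15) and the kinase genes Ak4 (0.17 ± 0.13) and Nme1 (0.13 ± 0.11) are examples. Of 11 genes of purine synthesis from small precursors 0 passed (1 at an unadjusted p below 0.05). Ppat, the enzyme that commits to the pathway, was at 0.44 ± 0.15 (adjusted p = 0.391), with Prps1 at 0.26 ± 0.12 and Adss at 0.16 ± 0.09. Of 3 genes tested of the methyl cycle, which releases adenosine from S-adenosylhomocysteine, 0 passed (0 at an unadjusted p below 0.05). Ahcyl2 (0.14 ± 0.07), Ahcyl1 (0.14 ± 0.08) and Mat2b (-0.02 ± 0.09) were the 3 tested of 6 listed. Of 11 genes of pyrimidine salvage and breakdown 0 passed (0 at an unadjusted p below 0.05), with the deaminase genes Cda (0.36 ± 0.20) and Dctd (0.25 ± 0.22) and the phosphorylase gene Upp1 (0.30 ± 0.20) at the smallest p. These lists had medians of 0.09, 0.10, 0.14 and 0.12, against 0.01 for all genes tested and 0.04 for those above the 60th percentile filter.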

How the data were processed

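Total RNA of sorted Paneth cells was hybridised to 7 arrays (10 ug of RNA labelled per the labels' protocols). The submitters' processing notes name Affymetrix Expression Console as the software with which the authors made the deposited log2 values. The sources used here give neither its version nor the algorithm and normalization. The log2 scale was inferred from the range. The number of arrays limits the precision. Genes were named from the platform annotation (clusters with 1 symbol; 1621 clusters with several and 12146 unnamed were left out), checked against RefSeq of GRCm38.p6, which altered 0 symbols. The brightest cluster per symbol was kept, and the test left out genes whose mean fell under 6.79, the 40th percentile over clusters. Diets were compared with limma 3.58.1 in R 4.3.3 (lmFit, eBayes with trend), with Benjamini-Hochberg adjustment over 13409 genes. The fit was run on simulated data whose noise was drawn for each gene separately. That run does not cover variation shared between genes, which these arrays have. Promoter windows came from RefSeq. Figures used matplotlib 3.10.9.

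The members and lists were chosen with earlier results of these data known. Named genes were the members, called genes and the 3 smallest p of each list, the 5 genes most like Ada and Enpp3 by Pearson correlation, and the 2 brightest markers per cell type. Entpd2, Entpd3, Entpd8, Enpp4, Enpp5, Dpp4, Slc29a2, Slc29a3, Pnp, Ampd2, Ampd3 and Hprt were added after their values were seen. So were the markers Cubn, Cd8a and Zg16. Alternatives were quantile normalization, median centring, no filter, a 60th percentile filter, the mean of all clusters, eBayes without trend or robust, array weights, a block for the replicate number, and fits without each array in turn.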

Additional observations from a re-analysis of the deposited data

How the results depend on the processing

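The differences of Ada, Enpp3, Nt5e and Xdh stayed positive in all 16 alternatives, at 1.78 to 2.50, 1.62 to 2.17, 1.06 to 2.15 and 0.43 to 0.65, while those of Adk (-0.11 to 0.05) and Slc29a1 (-0.01 to 0.15) crossed 0. Groups that do not overlap fix the sign for Ada, Enpp3 and Xdh, so it is no sign of stability. Of the 87 other nucleotide genes, 4 were called higher. The count was 1 after quantile normalization (13 at an unadjusted p below 0.05) and 13 with array weights, and 0 to 5 without 1 array. Over all genes, 88 were higher and 1 lower. The counts were 53 and 0 after quantile normalization, 963 and 392 with array weights, and 12 to 97 and 0 to 9 without 1 array. Array medians were on average lower under calorie restriction, and centring them adds the same amount to the difference of every gene. After median centring the median difference over all genes was 0.10 instead of 0.01. Lower genes then numbered 0, and they numbered 0 with the 60th percentile filter and 2 with no filter (limma, 63, 166 and 600 lower at an unadjusted p below 0.05, and 231 after quantile normalization). Why the counts of lower genes changed was not tested.

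Arrays of the 2 diets with the same replicate number did not deviate alike. Deviations of calorie restricted and ad libitum arrays with the same number correlated at -0.13, -0.27 and -0.55. The leading component held 65.7% of the variation within diets, so these values cannot settle whether a number marks a shared batch. A fit with the replicate number as a block has few degrees of freedom left. In it limma called 0 higher and 0 lower genes (740 and 248 at an unadjusted p below 0.05). Of the 87 nucleotide genes it called 0 (14 higher at an unadjusted p below 0.05). The differences of Ada and Enpp3 were then 2.08 and 1.82, and calorie restricted replicate 4 does not enter these values.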

Other observations

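Tk1 and Gart, singled out after their values were seen, were low in ad libitum replicate 1 and high in calorie restricted replicate 4, where Nt5e was high and low. The thymidine kinase gene Tk1, a gene of dividing cells, was at 8.75 in ad libitum replicate 1 against 9.80 and 10.17 in replicates 2 and 3, and at 10.42 in calorie restricted replicate 4 against 9.17 to 9.75 in the others of that diet. Gart, which encodes an enzyme of purine synthesis, was at 10.11 in ad libitum replicate 1 against 10.78 and 10.83, and at 10.92 in calorie restricted replicate 4 against 10.30 to 10.70. Nt5e was highest of its diet in ad libitum replicate 1 (9.26) and lowest in calorie restricted replicate 4 (8.51). The mean of 6 crypt stem cell markers was lowest in ad libitum replicate 1 (10.66).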
